A study of Mus musculus with 12 samples.

Results

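Imprinted genes, which are expressed mainly from the maternal or mainly from the paternal chromosome, were followed in mouse embryonic stem cells (mESC) and in anterior neural progenitors (AntNPC) made from them, in a WT line and in a line labelled EED-/-. A list of 46 named imprinted genes was matched to the deposited expression table by gene symbol. Of these, 42 had a row among the 21253 genes of the table, and 36 reached the level needed for testing, out of 13678 genes tested in all. The 42 genes comprised 18 expressed from the maternal allele, 22 from the paternal allele and 2 (Gnas and Grb10) from either allele depending on tissue or isoform. They lie in 21 imprinted clusters, 8 of which have at least 2 members in the table. H19, Meg3, Rian and Kcnq1ot1, the long non-coding RNAs of 3 clusters, were not analysed here.

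The mESC were grown on gelatin in 15% serum with LIF, and the WT cells were the E14 line. The AntNPC came from 5 days in N2B27 medium, with bFGF at 10 ng/ml early on and the WNT pathway inhibitor Xav939 at 5 uM later. There were 2 libraries of WT mESC, 2 of mESC labelled EED-/-, 4 of WT AntNPC and 4 of AntNPC labelled EED-/-. Each genotype is 1 line, and the EED-/- line was made earlier by another group, per the labels; the labels state neither its allele nor its parental line, and line and genotype cannot be told apart. The labels do not call the replicates separate cultures, and the p-values therefore measure only how far these samples spread, which can be technical.

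At many but not all imprinted clusters a control region carries DNA methylation on the chromosome inherited from one parent. At those clusters that mark decides which allele of the surrounding genes is transcribed. EED belongs to PRC2, a Polycomb complex that places methyl groups on lysine 27 of histone H3. In the mouse, PRC2 is known to help silence one allele at part of the imprinted genes, the Kcnq1 cluster in the placenta among them, and to repress many developmental genes on both alleles. Paternally expressed genes include several that promote fetal growth, whereas a number of maternally expressed genes restrain it. The values here are FPKM (fragments scaled to transcript length and library size), which adjust for length and library size and do not separate the parental alleles.

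Eed RNA did not follow the genotype label. Its level was 66.2 and 163 FPKM in WT mESC, 644 and 376 in the mESC labelled EED-/-, 42 to 63.4 in WT AntNPC and 171 to 202 in the AntNPC labelled EED-/- (log2 fold change 1.74 in AntNPC, limma adjusted p = 0.000616, and 2.23 in mESC, adjusted p = 0.00163). For AntNPC the authors' deposited table lists Eed with the opposite direction, at mean read counts of 3723.13 (WT) and 2495.77 (labelled EED-/-). All directions below are therefore between libraries as labelled. The FPKM of a library summed to between 453550 and 864235, and read depth is unknown. Replicate 1 stood apart from replicates 2 to 4 in both AntNPC groups. Genes of chromosomes 3, 6 and 8 were higher as a group in libraries labelled EED-/-, with medians of 0.49, 0.56 and 0.42 (log2) in AntNPC, where the median of all genes was 0.05.

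Imprinted genes moved in both directions and more of them rose than fell when the libraries labelled EED-/- were compared with WT. In AntNPC 11 of the 36 tested members rose (30.6%) and 4 fell (11.1%), where 18.3% of all tested genes rose and 7.75% fell. In mESC 12 rose (33.3%) and 1 fell (2.78%), where 20% of all genes rose and 2.73% fell. "Rose" and "fell" mean an adjusted p under 0.05 in limma on log2(FPKM + 1). The median log2 fold change of the members was 0.18 in AntNPC and 0.70 in mESC, against 0.05 and 0.29 over all genes. In mESC the count depends on scaling: quantile normalization moved the median of all genes from 0.29 to -0.05 and left 6 members that rose and 2 that fell, with Gab1, H13, Nap1l5, Peg12, Plagl1 and Sgce no longer called. Of the 23 members that did not pass in mESC, 16 passed in at least 1 of the 12 fits that left out a single library, and of the 13 that passed, 7 missed the threshold in at least 1. In AntNPC these numbers were 8 of 21 and 3 of 15, and Ascl2, Blcap, Cd81, Inpp5f, Mest, Ppp1r9a and Zrsr1 passed there without WT mESC replicate 1 or 2, which leaves their AntNPC values as they are and changes the estimate of spread. The share of all calls that rose went from 88.0% to 52.2% in mESC and from 70.3% to 50% in AntNPC under that scaling.

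Both parental classes were represented among the genes that changed. Of 21 tested paternally expressed members, 8 rose and 2 fell in AntNPC, and by limma 9 rose and 0 fell in mESC (1 was lower at an unadjusted p under 0.05). Of 13 tested maternally expressed members, 3 rose and 1 fell in AntNPC, and 2 rose and 1 fell in mESC. The median log2 fold changes were 0.38 (paternal) and 0.05 (maternal) in AntNPC, and 0.68 and 0.70 in mESC. The difference between the classes was not tested. The genes that rose in both cell types were Igf2, Nap1l5, Dlk1, Plagl1, H13, Gab1 and Sfmbt2, and 17 of the 36 members passed in neither. Cdkn1c and Gnas rose in mESC and fell in AntNPC. The map of all members by cluster shows the level of each gene in each library.

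**Figure D1:**
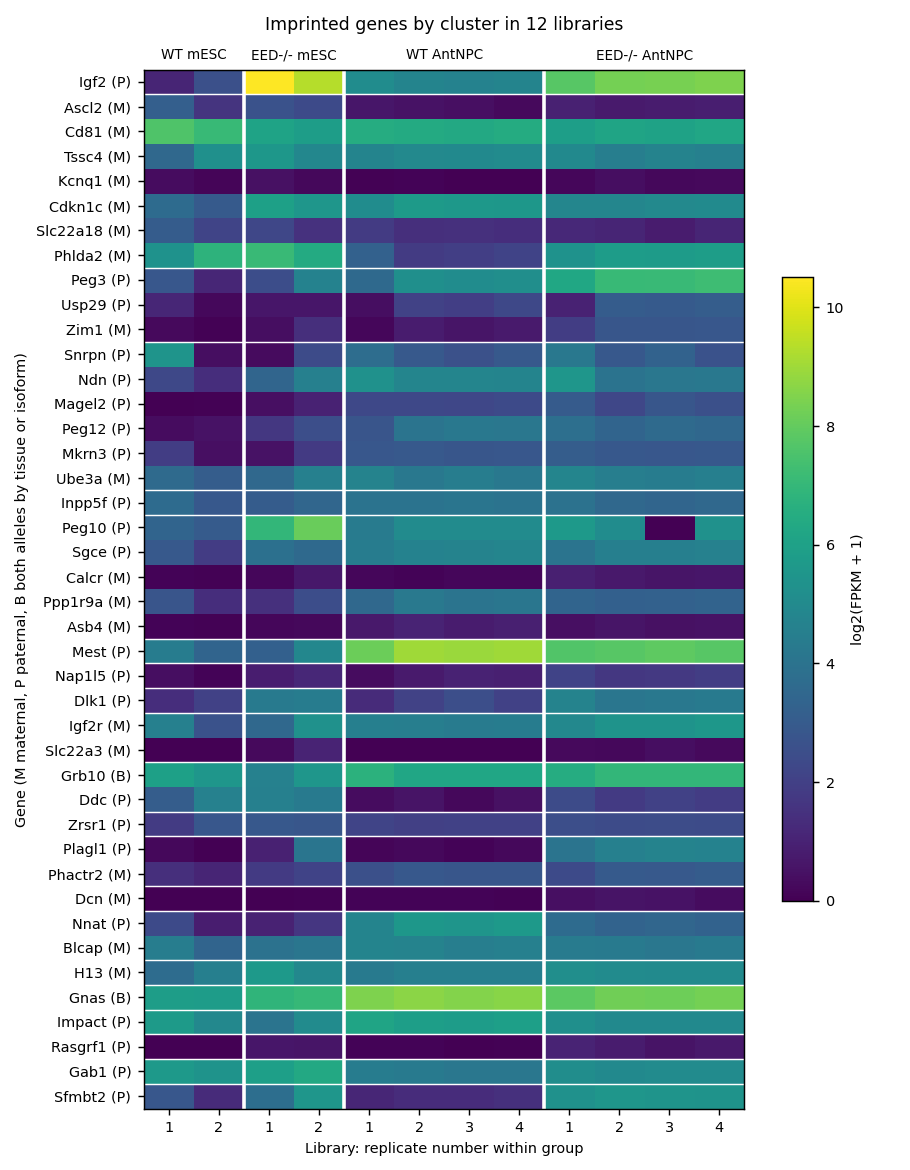
Level of the 42 imprinted genes (rows, grouped by cluster, with M, P or B for the allele known to be expressed) in the 12 libraries (columns), as log2(FPKM + 1) by colour. Igf2 is brightest in the 2 mESC libraries labelled EED-/-, and Plagl1 and Sfmbt2 are bright in the 4 AntNPC libraries labelled EED-/- and dark in the 4 WT ones.

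Many markers of other cell types moved with the genotype label, and those of pluripotency did so in AntNPC only. Of 10 tested trophoblast markers (14 named), 10 rose in AntNPC (100%) and 8 in mESC (80%). Their summed level was 35.9 to 41.9 FPKM in WT AntNPC and 287 to 446 in the AntNPC labelled EED-/-, and 48.4 to 56.8 against 985 to 2452 in mESC. Gcm1, Tpbpa and Prl3d1, which mark differentiated trophoblast, stayed under 1 FPKM in every library. Cdx2, Gata3, Hand1 and Plac1 were under 1 FPKM in every WT library and reached the test only through libraries labelled EED-/-. Cdx2 was called in AntNPC at 0.132 to 0.454 FPKM in those labelled EED-/-. Sox17, Gata6, Sox7, Foxa2, Afp, Ttr and Apoa1 (endoderm) were likewise under 1 FPKM in every WT library. So were T, Kdr, Foxc1, Col1a1 and Col3a1 (mesoderm). The filter thus favours rises in the counts of these lists, and the shares that rose are set in part by it. Of 12 extraembryonic endoderm markers, 11 rose in AntNPC (91.7%) and 9 in mESC (75%). Of 11 tested mesoderm and fibroblast markers, 9 rose in AntNPC (81.8%) and 6 in mESC (54.5%). Over all tested genes 18.3% rose and 7.75% fell in AntNPC, and 20% rose and 2.73% fell in mESC. All 7 pluripotency markers rose in AntNPC (100%), and in mESC 0 rose and 0 fell (median log2 fold change -0.24). Their summed level in AntNPC was 21.3 to 58.8 FPKM in WT and 123 to 199 in those labelled EED-/-. In AntNPC 2 of 8 neural progenitor markers fell (25%). These were Otx2 (means 157 and 23.6 FPKM) and Hes5 (8.60 and 1.85), and Nes (20.7 and 21.5), Lhx2 (8.08 and 9.25), Six3 (10.3 and 13.4), Sox1 (14.9 and 12.2), Pax6 (23.7 and 13.7) and Fabp7 (4.55 and 1.46) did not pass. Of 6 tested neuron markers, 1 rose (16.7%) and 3 fell (50%) in AntNPC. In mESC 1 neuron marker rose and 1 fell (16.7% each). There 2 of the 8 neural progenitor markers rose (25%) and 0 fell. Several imprinted genes are transcribed in trophoblast, endoderm or mesoderm. The part of these cell types in the results below was not tested, and in bulk RNA more cells of a type cannot be told apart from more RNA per cell.

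The AntNPC comparison had its largest rises at Plagl1 and Sfmbt2, and the 4 members that passed with a fall were Nnat, Impact, Cdkn1c and Gnas. Mest (-0.99) and Ppp1r9a (-0.69) had larger differences than some of these and did not pass. The RefSeq promoters (GRCm38.p6; 250 bases before to 50 after the start) of 2 that rose and 2 that fell are shown because a CpG-rich start is where imprinting marks and PRC2 are commonly found. CG pairs are in capitals. Plagl1 lies at chr10:13090582-13090881, Sfmbt2 at chr2:10370201-10370500, Nnat at chr2:157559828-157560127 and Gnas at chr2:174327499-174327798, all on the plus strand. Cdkn1c had no entry in the table used, and the Sfmbt2 and Gnas promoters are the first of several entries.
Plagl1: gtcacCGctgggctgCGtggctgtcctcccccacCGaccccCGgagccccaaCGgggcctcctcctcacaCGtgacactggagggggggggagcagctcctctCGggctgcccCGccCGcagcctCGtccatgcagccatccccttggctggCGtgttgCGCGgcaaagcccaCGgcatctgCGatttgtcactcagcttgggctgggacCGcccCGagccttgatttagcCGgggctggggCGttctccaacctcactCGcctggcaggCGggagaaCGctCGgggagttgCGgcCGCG
Sfmbt2: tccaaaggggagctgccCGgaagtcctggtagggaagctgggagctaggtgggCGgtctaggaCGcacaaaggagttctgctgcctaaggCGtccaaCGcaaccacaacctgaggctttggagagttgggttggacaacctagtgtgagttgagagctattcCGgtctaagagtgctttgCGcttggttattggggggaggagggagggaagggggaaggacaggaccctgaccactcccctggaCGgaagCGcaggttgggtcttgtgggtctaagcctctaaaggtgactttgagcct
Nnat: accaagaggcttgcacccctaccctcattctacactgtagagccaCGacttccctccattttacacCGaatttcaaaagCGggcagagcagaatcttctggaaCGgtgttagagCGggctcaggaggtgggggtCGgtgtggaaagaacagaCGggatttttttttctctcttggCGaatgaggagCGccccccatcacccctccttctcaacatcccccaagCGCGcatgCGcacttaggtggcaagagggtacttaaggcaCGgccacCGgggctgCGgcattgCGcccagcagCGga
Gnas: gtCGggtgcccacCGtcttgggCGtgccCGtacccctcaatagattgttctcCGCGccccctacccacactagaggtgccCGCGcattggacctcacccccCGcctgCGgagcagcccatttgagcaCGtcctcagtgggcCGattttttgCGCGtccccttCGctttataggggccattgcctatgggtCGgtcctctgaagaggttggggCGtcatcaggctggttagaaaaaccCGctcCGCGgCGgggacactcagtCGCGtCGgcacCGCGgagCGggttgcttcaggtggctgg
These promoters hold 26, 9, 17 and 27 CG pairs for Plagl1, Sfmbt2, Nnat and Gnas. A gene that rose and a gene that fell thus had the higher counts. Over the 36 members with a promoter entry the median was 17 CG pairs, against 21 over the tested genes with an entry and 7 over all promoters. It was 23 in maternally and 12 in paternally expressed members. The hexamer TGCCGC, searched on both strands as the sequence bound by the imprint-protecting factor ZFP57 when methylated, occurred in 6 of 36 member promoters (16.7%), in 19.5% of tested genes' promoters and in 11.6% of all promoters. The 6 were those of Plagl1, Nnat, Nap1l5, Zim1, Grb10 and Calcr.

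In the Igf2-H19 cluster on chromosome 7, Igf2 rose in both cell types. Igf2 (142650766 to 142666816, GRCm38, minus strand) encodes insulin-like growth factor 2, a paternally expressed fetal growth factor. In mESC its level was 1.11 and 4.88 FPKM in WT and 1452 and 653 in libraries labelled EED-/-. Its level in AntNPC was 34.0, 25.5, 24.5 and 25.5 FPKM in WT and 218, 314, 325 and 358 in those labelled EED-/-. The groups did not overlap in either cell type, and the highest levels of all were those of the mESC labelled EED-/-. The log2 fold change was 8.11 ± 0.47 (SE) in mESC (limma adjusted p = 1.9e-06) and 3.42 ± 0.33 in AntNPC (adjusted p = 2.22e-05), and the effects differed (AntNPC minus mESC -4.70, adjusted p = 0.000411). Among the 7 other tested genes within 500 kb of Igf2, 3 rose in AntNPC and 4 rose and 1 fell in mESC. Over all tested genes 18.3% rose in AntNPC, and 20% rose and 2.73% fell in mESC. Such neighbours were also counted near the other members that rose in AntNPC (Sfmbt2 below). Those that rose there were 0 of 10 at Peg3 and Zim1, 0 of 7 at Phlda2, 0 of 2 at Gab1 and 0 of 1 at Dlk1. At H13 3 of 16 rose, at Plagl1 1 of 7, at Nap1l5 1 of 3 and at Ddc 1 of 2.

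**Figure D2:**
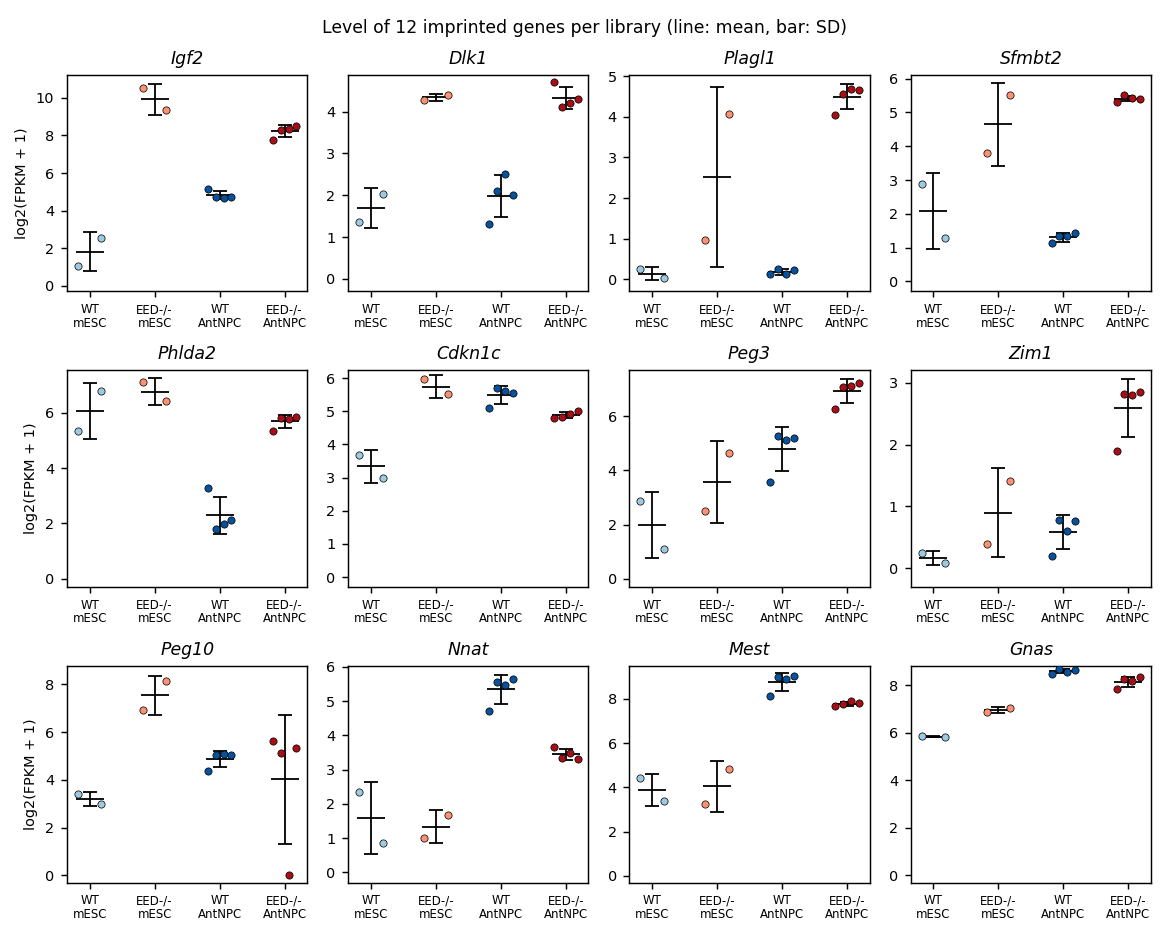
Level of 12 imprinted genes in each library as log2(FPKM + 1), with 1 point per library, a line at the group mean and bars of 1 SD, for WT and EED-/- mESC (n = 2) and AntNPC (n = 4). The AntNPC groups do not overlap except at Peg10, where replicate 3 labelled EED-/- is listed at 0.

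The Kcnq1 cluster, a row of maternally expressed genes next to Igf2, split by gene and by cell type. Phlda2, a maternally expressed gene that restrains placental growth, had 8.64, 2.50, 2.90 and 3.36 FPKM in WT AntNPC and 39.8, 55.3, 53.9 and 57.1 in the AntNPC labelled EED-/-. The mESC libraries had 39.6 and 110 FPKM in WT and 138 and 84.5 in those labelled EED-/-. The AntNPC groups were far apart (log2 fold change 3.41 ± 0.37, limma adjusted p = 4.99e-05), and the mESC groups overlapped (0.70 ± 0.52, adjusted p = 0.404). WT AntNPC was the low group.

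Cdkn1c, a maternally expressed inhibitor of the cell cycle (also called p57), went in opposite directions in the 2 cell types. Its level in mESC was 11.9 and 6.91 FPKM in WT and 62.3 and 44.6 in libraries labelled EED-/- (log2 fold change 2.41 ± 0.26, limma adjusted p = 9.91e-05). Its AntNPC values were 33.3, 51.3, 47.6 and 45.9 FPKM in WT and 27.1, 27.6, 29.4 and 31.2 in those labelled EED-/-. Each AntNPC library labelled EED-/- was below each WT one, by a small margin (-0.59 ± 0.19, adjusted p = 0.0366). With the replicate number as a block the AntNPC difference did not pass (adjusted p = 0.104). It passed with the block and the 8 AntNPC libraries alone (adjusted p = 0.00351). It was lost without any 1 AntNPC library other than WT replicate 1 (-0.52 to -0.63, adjusted p up to 0.112).

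Cd81, which encodes a tetraspanin of the cell surface and is maternally expressed in placenta, fell in mESC. It had 192 and 133 FPKM in WT mESC and 67.2 and 56.4 in the mESC labelled EED-/- (log2 fold change -1.36 ± 0.20, limma adjusted p = 0.000613). Its level in AntNPC was 90.5, 85.2, 80.5 and 86.1 FPKM in WT and 58.1, 68.7, 64.8 and 73.8 in those labelled EED-/-, groups that did not overlap (-0.37 ± 0.14, adjusted p = 0.0784). The other tested genes of the cluster, Ascl2, Tssc4 and Slc22a18, did not pass in either cell type, with log2 fold changes of 0.38, -0.24 and -0.47 in AntNPC and 0.13, 0.80 and -0.75 in mESC. Without WT mESC replicate 2 the mESC value passed for Tssc4 (1.65, adjusted p = 0.0015) and Slc22a18 (-1.19, adjusted p = 0.0132), and that of Ascl2 was -0.66 (adjusted p = 0.025), against 0.92 without WT mESC replicate 1 (adjusted p = 0.00626). Slc22a18 in mESC also passed without replicate 1 of the mESC labelled EED-/- (-1.12, adjusted p = 0.0383), with quantile normalization (-1.36, adjusted p = 0.02) and with each chromosome centred (-1.11, adjusted p = 0.0364), and in AntNPC with quantile normalization (-0.88, adjusted p = 0.0188) or the AntNPC libraries alone (-0.47, adjusted p = 0.0146). Ascl2, a trophoblast transcription factor, was under 1 FPKM in all 8 AntNPC libraries, and Kcnq1, a potassium channel gene, was under 1 FPKM in all 12 and was not tested.

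At the proximal end of chromosome 7, Peg3 and Zim1, which are expressed from opposite parental alleles, rose together in AntNPC. Peg3, a paternally expressed zinc finger gene, had 11.0, 37.1, 33.9 and 35.7 FPKM in WT AntNPC and 76.0, 135, 137 and 150 in those labelled EED-/- (log2 fold change 2.13 ± 0.55, limma adjusted p = 0.0133). Zim1, its maternally expressed zinc finger neighbour, had 0.145, 0.718, 0.526 and 0.699 FPKM in WT and 2.71, 6.07, 5.93 and 6.17 in those labelled EED-/- (2.00 ± 0.27, adjusted p = 0.000227). Replicate 1 was the lowest library of its group for both genes and in both groups, and the groups still did not overlap. Usp29, a paternally expressed gene that shares a promoter region with Peg3, had 0.313, 3.19, 2.85 and 3.90 FPKM in WT and 1.02, 7.39, 6.92 and 7.57 in those labelled EED-/- (0.87 ± 0.52, adjusted p = 0.278). At each replicate number the library labelled EED-/- had the higher Usp29 level. With the replicate number as a block the difference passed in the AntNPC libraries alone (adjusted p = 0.000973) and not over all 12 libraries (adjusted p = 0.26). It also passed without replicate 1 of the AntNPC labelled EED-/- (1.38, adjusted p = 0.0366) and without replicate 1 of both AntNPC groups (0.95, adjusted p = 0.0161).

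In mESC the members of the Peg3 cluster did not pass. Peg3 had 6.25 and 1.17 FPKM in WT mESC and 4.63 and 24.0 in the mESC labelled EED-/- (log2 fold change 1.58 ± 0.77, limma adjusted p = 0.18), with overlapping groups. Zim1 had 0.187 and 0.0582 against 0.309 and 1.65 FPKM (0.73 ± 0.38, adjusted p = 0.207), and these groups did not overlap. Without replicate 1 of the mESC labelled EED-/- both passed, at 2.66 for Peg3 (adjusted p = 0.0363) and 1.24 for Zim1 (adjusted p = 0.0437).

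Whether the maternal to paternal ratio of this cluster differed between genotypes in AntNPC depended on the pseudocount. The log2 ratio of Zim1 to Peg3 (each FPKM + 1) was -3.38, -4.47, -4.51 and -4.43 in WT AntNPC and -4.37, -4.27, -4.31 and -4.39 in those labelled EED-/-. The means were -4.20 ± 0.55 and -4.34 ± 0.06 (SD, n = 4), a difference of -0.13 (two-sided exact permutation test, p = 1.0, where 0.0286 is the smallest p possible). The 3 lower WT libraries lay below all 4 of those labelled EED-/-, and WT replicate 1 lay above them. Without that replicate the difference was 0.14 (exact permutation p = 0.0286). With a pseudocount of 0.1 in place of 1 the ratios were -5.76 to -5.49 in WT and -4.76 to -4.45 in those labelled EED-/-, groups that did not overlap, and the difference was 0.99 (exact permutation p = 0.0286). WT Zim1 lies under 1 FPKM, where adding 1 compresses the ratio, and the mean levels rose 10.0-fold for Zim1 and 4.23-fold for Peg3. In mESC the ratio was -2.61 and -1.03 in WT and -2.11 and -3.24 in those labelled EED-/-.

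The Snrpn cluster, whose human counterpart is lost in Prader-Willi and Angelman syndromes, had no member that passed between genotypes in AntNPC by limma, and 0 of its 6 tested members had an unadjusted p under 0.05. Their log2 fold changes ran from -0.42 to 0.38 there. The authors' deposited p-value for AntNPC, not stated to be adjusted, was under 0.05 for Ndn and Magel2 and not for the others. In mESC Ndn and Peg12 rose. Ndn, a paternally expressed MAGE-family gene of neurons, had 3.86 and 1.60 FPKM in WT mESC and 9.86 and 22.6 in the mESC labelled EED-/- (2.17 ± 0.52, limma adjusted p = 0.0119). Its AntNPC values were 38.7, 26.6, 26.2 and 25.5 FPKM in WT and 45.3, 15.0, 17.1 and 17.2 in those labelled EED-/-. Replicate 1 was the highest library in both AntNPC groups, and replicates 2 to 4 were lower in those labelled EED-/- than in WT. Peg12, a paternally expressed single-exon gene, had 0.284 and 0.408 FPKM in WT mESC and 2.27 and 4.74 in the mESC labelled EED-/- (1.69 ± 0.45, adjusted p = 0.0195). Without replicate 2 of the mESC labelled EED-/- neither passed in mESC (1.61, adjusted p = 0.0919, for Ndn and 1.28, adjusted p = 0.125, for Peg12), and Ndn also missed the threshold without WT mESC replicate 2 (1.72, adjusted p = 0.0505).

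Peg12 in AntNPC had 5.74, 15.6, 17.6 and 16.8 FPKM in WT and 13.4, 9.37, 11.3 and 10.3 in those labelled EED-/-, again overlapping only through replicate 1. Snrpn, a paternally expressed splicing factor gene, varied widely between libraries of the same group. It had 42.7 and 0.315 FPKM in WT mESC and 0.224 and 4.35 in the mESC labelled EED-/-, a spread within the WT group that exceeds the difference between the groups (log2 fold change -1.57 ± 1.26, limma adjusted p = 0.446). Without WT mESC replicate 2 the value was -4.09 (adjusted p = 0.00395). Magel2, Mkrn3 and Ube3a did not pass in either cell type. Their AntNPC means were 3.86, 6.33 and 20.2 FPKM in WT and 5.42, 6.63 and 22.6 in those labelled EED-/-. Magel2, a MAGE-family gene like Ndn, had 0.0223 and 0.052 FPKM in WT mESC and 0.363 and 1.02 in the mESC labelled EED-/-, groups that did not overlap. It passed in mESC with a pseudocount of 0.1 (2.40, adjusted p = 0.00194) and without replicate 1 of the mESC labelled EED-/- (0.96, adjusted p = 0.0314). Ube3a, a ubiquitin ligase gene that is maternally expressed in neurons, had 11.4 and 7.55 against 10.7 and 22.6 FPKM in mESC and passed without that same library (1.19, adjusted p = 0.0119). Snrpn and Ube3a overlap the long non-coding RNA Snhg14 on the annotation, and the sources used here do not say whether counting used strand.

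On chromosome 6 the members are read against the raised median of that chromosome (0.56 in AntNPC and 0.77 in mESC). Peg10, a paternally expressed gene derived from a retrotransposon and needed for the placenta, had 9.56 and 7.0 FPKM in WT mESC and 122 and 277 in the mESC labelled EED-/-. Its level in AntNPC was 19.9, 32.1, 32.4 and 32.1 FPKM in WT and 48.4, 33.4, 0 and 39.3 in those labelled EED-/-. The 0 of replicate 3 stands beside 3 replicates above all WT libraries and can be a failed estimate. For AntNPC the authors' deposited table lists Peg10 at mean read counts of 9157.59 (WT) and 11735.7 (labelled EED-/-). With the 0 included, the mESC log2 fold change of 4.33 ± 1.45 did not pass (limma adjusted p = 0.0533). With that value left out it passed (adjusted p = 3.45e-05), and the AntNPC value changed from -0.87 to 0.47 (adjusted p = 0.293).

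Sgce, the paternally expressed sarcoglycan gene next to Peg10, rose in mESC, from 6.67 and 2.61 FPKM in WT to 13.9 and 10.9 in those labelled EED-/- (log2 fold change 1.34 ± 0.32, limma adjusted p = 0.0117). Its AntNPC values were 20, 23.9, 24.6 and 26.2 FPKM in WT and 15.4, 22.2, 22.1 and 23.2 in those labelled EED-/-, and the groups overlapped (-0.19). When each chromosome was centred on its own median, the AntNPC value was -0.81 and passed (adjusted p = 0.0131), and the mESC value was 0.27 and did not (adjusted p = 0.617). The mESC value was 0.79 without WT mESC replicate 2, and its call was lost, narrowly, without replicate 1 of the mESC labelled EED-/- (1.18, adjusted p = 0.0538). Mest, a paternally expressed gene of the hydrolase family expressed in mesoderm and brain, had the highest mean level of the members in WT AntNPC, with 280, 511, 480 and 513 FPKM, against 201, 218, 235 and 221 in those labelled EED-/-. The groups did not overlap, and the difference missed the threshold (-0.99 ± 0.34, adjusted p = 0.0574). It passed after centring each chromosome (-1.60, adjusted p = 0.00154) and without WT AntNPC replicate 1 (-1.19, adjusted p = 0.0323).

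Nap1l5, a paternally expressed single-exon gene inside an intron of Herc3, rose in both cell types. It had 0.259, 0.692, 0.991 and 0.895 FPKM in WT AntNPC and 3.31, 2.23, 2.39 and 2.80 in those labelled EED-/- (log2 fold change 1.12 ± 0.17, limma adjusted p = 0.000533). Its mESC values were 0.305 and 0.0618 against 0.770 and 1.24 FPKM (0.76 ± 0.24, adjusted p = 0.0426), a difference close to the chromosome's median shift, which turned to -0.32 after centring. Its mESC call was lost in 8 of the 12 fits that left out a single library (adjusted p up to 0.19, and 0.59 without replicate 2 labelled EED-/-). Ppp1r9a, maternally expressed in placenta, had 10.6, 18.1, 15.3 and 16.6 FPKM in WT AntNPC and 9.53, 8.31, 8.47 and 9.14 in those labelled EED-/-. The groups did not overlap, and the difference did not pass (-0.69). After centring each chromosome it passed in AntNPC (-1.31, adjusted p = 0.00149) and in mESC (-1.18, adjusted p = 0.0323). It also passed in AntNPC with quantile normalization (-0.78, adjusted p = 0.0312), with the AntNPC libraries alone (adjusted p = 0.00428) and without WT mESC replicate 1 or 2 (adjusted p = 0.0365 or 0.0363). Calcr and Asb4 stayed near or under 1 FPKM in all libraries and were not tested.

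Dlk1, the paternally expressed member of the Dlk1-Meg3 cluster on chromosome 12, rose in both cell types. It encodes a membrane protein related to Notch ligands that is found in progenitor cells. Its level was 1.57 and 3.09 FPKM in WT mESC and 18.5 and 20.1 in the mESC labelled EED-/-. Its level in AntNPC was 1.48, 3.26, 4.71 and 3.03 FPKM in WT and 25.2, 16.4, 17.3 and 18.6 in those labelled EED-/-. No library labelled EED-/- was as low as any WT library. The log2 fold changes were 2.65 ± 0.36 in mESC (limma adjusted p = 0.000429) and 2.35 ± 0.26 in AntNPC (adjusted p = 5.43e-05). Dio3, at the far end of the same cluster and not among the 46, encodes a deiodinase that inactivates thyroid hormone and rose in mESC (1.59, adjusted p = 0.0168).

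Plagl1 and Sfmbt2 were low in all WT AntNPC libraries and far higher in those labelled EED-/-. Plagl1 (chromosome 10, 13060504 to 13131694), a paternally expressed zinc finger factor of fetal growth, had 0.0944, 0.186, 0.0862 and 0.163 FPKM in WT AntNPC and 15.4, 22.7, 24.8 and 24.4 in those labelled EED-/-. Its level in mESC was 0.186 and 0.0138 FPKM in WT and 0.943 and 15.9 in those labelled EED-/-. The AntNPC groups were uniform and the 2 mESC libraries labelled EED-/- differed widely. The log2 fold change was 4.31 ± 0.50 in AntNPC (limma adjusted p = 8.04e-05) and 2.38 ± 0.70 in mESC (adjusted p = 0.0318). Without replicate 2 of the mESC labelled EED-/- the mESC value was 0.83 (adjusted p = 0.0626), and without WT mESC replicate 1 or 2 it was 2.50 or 2.27 (adjusted p = 0.0553 or 0.0725). Without replicate 1 of the mESC labelled EED-/- it was 3.94. Phactr2, the neighbour of Plagl1 that is maternally expressed in placenta, had 5.88 ± 0.621 and 6.21 ± 1.40 FPKM in AntNPC (SD, n = 4; 0.05 ± 0.18, adjusted p = 0.898), and passed in mESC without WT mESC replicate 1 (0.89, adjusted p = 0.0402) or replicate 1 of the AntNPC labelled EED-/- (0.71, adjusted p = 0.0349).

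Sfmbt2 (chromosome 2, 10370510 to 10595253), a paternally expressed Polycomb-family gene needed in the placenta, rose in both cell types. It had 1.19, 1.52, 1.51 and 1.72 FPKM in WT AntNPC and 38.4, 44.4, 41.8 and 41.5 in those labelled EED-/-. The mESC libraries had 6.31 and 1.42 against 12.8 and 44.8 FPKM. The AntNPC groups each spanned a narrow range. The log2 fold change was 4.10 ± 0.38 in AntNPC (limma adjusted p = 1.58e-05) and 2.58 ± 0.53 in mESC (adjusted p = 0.00513). Of 5 other tested genes within 500 kb of Sfmbt2, 2 rose in AntNPC and 2 in mESC, where 18.3% and 20% of all tested genes rose.

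Gab1, the signalling adaptor that is paternally expressed in placenta, rose by less. It had 20.2, 18.5, 16.9 and 16.8 FPKM in WT AntNPC and 34.7, 30.6, 32.4 and 32.6 in those labelled EED-/- (log2 fold change 0.82 ± 0.12, limma adjusted p = 0.000558). Its mESC values were 48.9 and 41.2 against 59.9 and 79.8 FPKM (0.61 ± 0.18, adjusted p = 0.0283). Gab1 is on chromosome 8, whose median was 0.42 in AntNPC and 0.67 in mESC, and after centring each chromosome the mESC value was -0.13. The mESC call was also lost without WT mESC replicate 2 (0.49, adjusted p = 0.0662), without replicate 2 of the mESC labelled EED-/- (0.41, adjusted p = 0.146) and without replicate 3 of the AntNPC labelled EED-/- (0.61, adjusted p = 0.0502).

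At the Nnat-Blcap locus on chromosome 2 the 2 genes, which overlap on opposite strands, were unequal. Nnat (157560078 to 157562522), a paternally expressed membrane protein gene of the developing brain, fell in AntNPC. It had 25.4, 46.3, 43.5 and 49.1 FPKM in WT AntNPC and 11.6, 9.07, 10.1 and 8.91 in those labelled EED-/- (log2 fold change -1.91 ± 0.32, limma adjusted p = 0.000973). The lowest WT library was above every library labelled EED-/-. The mESC libraries had 4.06 and 0.797 against 1.00 and 2.19 FPKM (-0.25 ± 0.45, adjusted p = 0.76). Blcap, in whose intron Nnat lies, had 23.7 ± 1.90 and 18.3 ± 1.02 FPKM in AntNPC (SD, n = 4; -0.35 ± 0.19, adjusted p = 0.23), and passed in mESC without WT mESC replicate 1 (0.64, adjusted p = 0.0137).

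H13 and Gnas, both on chromosome 2 and both imprinted by isoform, showed small differences in AntNPC. H13, a signal peptide peptidase gene, had 18.5, 22, 21.9 and 22.4 FPKM in WT AntNPC and 35.6, 32.3, 31.5 and 31.6 in those labelled EED-/- (log2 fold change 0.61 ± 0.19, limma adjusted p = 0.0398). Its level in mESC was 12.1 and 21.9 against 48.8 and 29.0 FPKM (1.16 ± 0.27, adjusted p = 0.011), and without replicate 1 of the mESC labelled EED-/- that value was 0.80 (adjusted p = 0.0626), against 0.76 without WT mESC replicate 1, where it passed. The AntNPC call was lost without any 1 of the 8 AntNPC libraries (0.54 to 0.63, adjusted p up to 0.0981). Mcts2, the paternally expressed gene inside H13 and not among the 46, fell in AntNPC (-0.86, adjusted p = 0.0132). The FPKM of a gene sum its isoforms, so those that differ in parental origin are not separated.

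Gnas, the gene of the stimulatory G protein alpha subunit, was among the members with the highest FPKM. The authors' mean read count in WT AntNPC was 981.24 for Gnas, 1909.58 for Cdkn1c and 47506.3 for Mest. By that count, which is not scaled to transcript length, Gnas lay below Cdkn1c. Gnas FPKM in WT AntNPC were as follows, with those labelled EED-/- second. It had 354, 407, 372 and 393 FPKM in WT AntNPC and 229, 301, 288 and 320 in those labelled EED-/- (log2 fold change -0.43 ± 0.14, limma adjusted p = 0.0426). Its mESC values were 56.3 and 55.4 against 115 and 129 FPKM (1.11 ± 0.20, adjusted p = 0.00221). The groups did not overlap in either cell type, and the direction was opposite. The AntNPC call was lost in 7 of the 8 fits that left out an AntNPC library, all but that without WT replicate 1 (values from -0.49 to -0.33, adjusted p up to 0.12). With the replicate number as a block the AntNPC differences at H13 (adjusted p = 0.128) and Gnas (adjusted p = 0.118) did not pass, and they passed with the block and the AntNPC libraries alone (0.00201 and 0.00347).

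Impact, a paternally expressed regulator of translation under amino acid stress that is abundant in brain, fell in AntNPC. It had 68.5, 58.4, 55.4 and 60.5 FPKM in WT AntNPC and 37.1, 30.3, 30.7 and 30.4 in those labelled EED-/- (log2 fold change -0.90 ± 0.23, limma adjusted p = 0.0125). All 4 libraries labelled EED-/- were below all 4 WT libraries. With the replicate number as a block it missed the threshold (adjusted p = 0.0535), and with the block and the AntNPC libraries alone it passed (adjusted p = 7.89e-05). Its level in mESC was 52.1 and 28.7 against 15.7 and 32.6 FPKM, with overlapping groups (-0.75 ± 0.32, adjusted p = 0.128). Without WT mESC replicate 2 (-1.16, adjusted p = 0.0195) or replicate 2 of the mESC labelled EED-/- (-1.25, adjusted p = 0.0153) it passed in mESC.

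In the Grb10 cluster on chromosome 11, Ddc rose in AntNPC and Grb10 did not pass. Ddc encodes the decarboxylase that makes dopamine and serotonin and is paternally expressed in the developing heart. It had 0.259, 0.465, 0.176 and 0.385 FPKM in WT AntNPC and 4.31, 2.41, 3.09 and 2.61 in those labelled EED-/- (log2 fold change 1.62 ± 0.28, limma adjusted p = 0.00133). The mESC libraries had 7.66 and 23.7 against 22.6 and 19.1 FPKM, with overlapping groups, and passed without WT mESC replicate 2 (1.33, adjusted p = 0.00408). Grb10, an adaptor that dampens insulin receptor signalling, had 108, 74.0, 72.4 and 74.1 FPKM in WT AntNPC and 88.9, 124, 122 and 123 in those labelled EED-/- (0.48 ± 0.22, adjusted p = 0.144). WT replicate 1 was high and replicate 1 labelled EED-/- low; without both, Grb10 passed. In mESC it passed without replicate 2 of those labelled EED-/- (-1.11, adjusted p = 0.0305).

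Igf2r, the maternally expressed receptor that clears IGF2, did not pass although its AntNPC groups did not overlap. Its means were 20.9 ± 0.978 FPKM in WT AntNPC and 39.4 ± 7.58 in those labelled EED-/- (SD, n = 4), with a log2 fold change of 0.87 ± 0.42 (limma adjusted p = 0.168). Its mESC values were 22.6 and 5.25 against 10.6 and 38.4 FPKM, and it passed there without WT mESC replicate 1 (1.77, adjusted p = 0.0304). Zrsr1 and Inpp5f, both paternally expressed, did not pass either, with 0.39 and -0.40 in AntNPC, and Zrsr1 passed in mESC without WT mESC replicate 2 (1.05, adjusted p = 0.00127). The remaining untested members, Slc22a3, Dcn and Rasgrf1, were each at most about 1 FPKM in all libraries. With no filter on level, Calcr, Dcn, Kcnq1 and Rasgrf1 were called higher and Asb4 lower in the AntNPC labelled EED-/-. In mESC that fit called Rasgrf1 and Slc22a3 higher in those labelled EED-/-. All of these are low genes. Rasgrf1, a paternally expressed exchange factor for RAS, had at most 0.0773 FPKM in WT AntNPC and 0.487 to 1.07 in those labelled EED-/-.

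The genotype difference depended on the cell type for 8 of 36 members. By the interaction test (effect in AntNPC minus effect in mESC), 2 members rose (5.56%) and 6 fell (16.7%), where 3.98% of all tested genes rose and 11.3% fell. Phlda2 (2.71, limma adjusted p = 0.0154) and Cd81 (0.99, adjusted p = 0.0182) had the higher value in AntNPC. Igf2 (-4.70), Cdkn1c (-3.01, adjusted p = 0.000215), Ndn (-2.59, adjusted p = 0.0193), Peg12 (-1.90, adjusted p = 0.0394), Sgce (-1.53, adjusted p = 0.0234) and Gnas (-1.54, adjusted p = 0.00201) had the higher value in mESC. With the replicate number as a block only Igf2, Cdkn1c and Gnas passed. Without replicate 2 of the mESC labelled EED-/- Phlda2 (2.36, adjusted p = 0.0642), Cd81 (0.87, adjusted p = 0.056), Ndn (-2.03, adjusted p = 0.0822) and Peg12 (-1.49, adjusted p = 0.143) did not pass. Sgce missed the threshold without replicate 1 of the mESC labelled EED-/- (-1.37, adjusted p = 0.0621) or WT AntNPC replicate 4 (-1.48, adjusted p = 0.052), and Peg12 in 8 of the 12 such fits. The plot of both genotype effects places these genes off the diagonal.

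**Figure D3:**
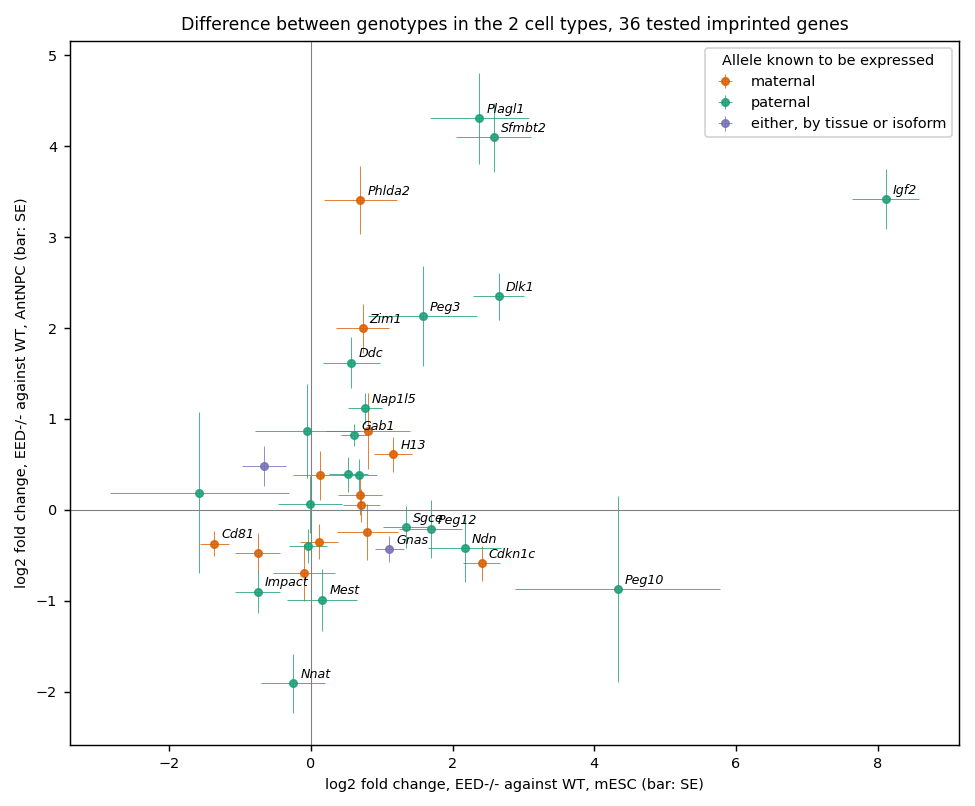
Log2 fold change of libraries labelled EED-/- against WT in mESC (horizontal axis) and AntNPC (vertical axis) for the 36 tested imprinted genes, coloured by the allele known to be expressed, with bars of 1 SE. Igf2 lies far right at 8.11 and 3.42, Plagl1 and Sfmbt2 lie highest, and Cdkn1c, Ndn, Gnas and Peg10 (with its listed 0) lie right of 0 and below 0.

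More imprinted genes passed the test between cell types than between genotype labels. From mESC to AntNPC in WT, 16 members rose (44.4%) and 6 fell (16.7%), where 30.1% of all genes rose and 18.1% fell. Between the libraries labelled EED-/-, 14 rose (38.9%) and 6 fell (16.7%), where 14.4% of all genes rose and 16.7% fell. The median log2 fold change of the members was 0.70 and 0.60, against 0.17 and -0.01 over all genes. The group means of the WT and EED-/- comparisons share no library with each other, while each shares its libraries with the genotype comparisons above. All 12 libraries set the spread in both, so their calls are not independent.

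The largest rises in WT were at paternally expressed genes. Mest rose from a mean of 14.7 to 446 FPKM (log2 fold change 4.88 ± 0.42, limma adjusted p = 4.4e-06) and Nnat from 2.43 to 41.1 (3.76 ± 0.39, adjusted p = 1.67e-05). Peg12 (3.37), Ndn (3.07), Igf2 (3.0), Peg3 (2.80), Magel2 (2.23) and Sgce (2.22) rose as well, with Gnas (2.75) and, among maternally expressed genes, Cdkn1c (2.16) and Ppp1r9a (1.92). Phlda2 (-3.78 ± 0.45, adjusted p = 4.8e-05), Ddc (-3.47), Ascl2 (-1.92), Gab1 (-1.27), Slc22a18 (-1.11) and Cd81 (-0.89) fell. In the Snrpn cluster 5 of 6 tested members rose, and in the Kcnq1 cluster 4 of 6 fell. By class, 10 of 21 paternally expressed members rose (47.6%) and 2 fell (9.52%), and 5 of 13 maternally expressed members rose (38.5%) and 4 fell (30.8%). Over all tested genes 30.1% rose and 18.1% fell. A difference between the classes was not tested.

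Several of these steps differed between the libraries labelled EED-/- and WT. Igf2 rose 3.0 in WT and fell by 1.70 on the log2 scale in those labelled EED-/- (limma adjusted p = 0.00854), and Cdkn1c rose 2.16 in WT and fell by 0.85 (adjusted p = 0.0163). The interaction test given above passed for both. Mest rose 3.74 and Nnat 2.10 in those labelled EED-/-, which are smaller values than in WT with interactions that did not pass (adjusted p = 0.25 and 0.0683). Grb10 (1.76, adjusted p = 0.000625), Plagl1 (1.97), Zim1 (1.69), Usp29 (1.91) and Nap1l5 (0.88) passed in those labelled EED-/- and not in WT, and their interactions did not pass either. With the replicate number as a block the counts between libraries labelled EED-/- were 8 that rose and 3 that fell, and Igf2 and Cdkn1c were among those lost. Of all tested genes 938 rose and 1383 fell with that block. Without replicate 1 of the mESC labelled EED-/- 6 rose and 3 fell, and Igf2 (-1.12, adjusted p = 0.131), Cdkn1c (-0.62, adjusted p = 0.173) and Plagl1 (0.42, adjusted p = 0.322) did not pass.

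**Figure D4:**
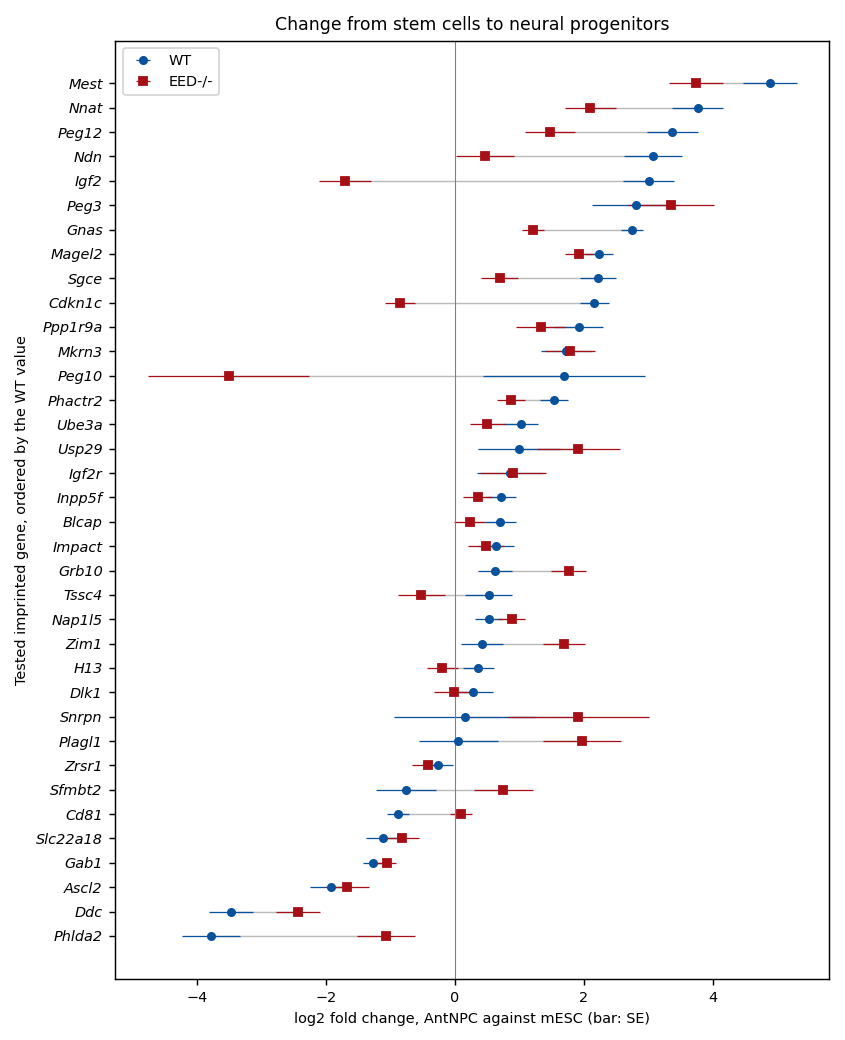
Log2 fold change from mESC to AntNPC (horizontal axis) of the 36 tested imprinted genes, ordered by the WT value, with circles for WT, squares for EED-/- and bars of 1 SE. Mest and Nnat are highest in WT, Phlda2 and Ddc lowest, and the circle and square of Igf2 and of Cdkn1c lie on opposite sides of 0.

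Of 21 tested imprinted genes outside the 46, 5 rose (23.8%) and 2 fell (9.52%) in AntNPC, and 4 rose (19%) and 1 fell (4.76%) in mESC. Over all tested genes 18.3% rose and 7.75% fell in AntNPC and 20% and 2.73% in mESC. The list's medians were 0.03 and 0.46, against 0.05 and 0.29 over all genes, and both its shares and its medians lay near those of all genes. Slc38a4, an amino acid transporter that is paternally expressed in placenta, rose in AntNPC (log2 fold change 2.35, limma adjusted p = 0.000366), as did Cobl, an actin nucleator gene next to Grb10 (1.20, adjusted p = 0.000549). Zdbf2, a paternally expressed gene active in brain, fell from 30.2, 39.5, 31.7 and 32.7 to 19.8, 13.4, 14.6 and 14.5 FPKM (-1.06, adjusted p = 0.0297). In mESC Osbpl5 (1.98, adjusted p = 0.000585) and Tnfrsf23 (1.71, adjusted p = 0.00225), which lie near the Kcnq1 cluster, rose, and Begain (-0.91, adjusted p = 0.00731) fell. Tnfrsf23, and Pon3, which rose in AntNPC, were under 1 FPKM in every WT library. Both reached the test only through libraries labelled EED-/-.

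Of 17 tested genes that protect imprints, 3 rose in AntNPC (17.6%) and 2 in mESC (11.8%), no larger shares than the 18.3% and 20% of all genes. Dppa3, which shields methylation in the early embryo and lies on chromosome 6, had 0.434, 0.229, 0.469 and 0.814 FPKM in WT AntNPC and 44.4, 21.9, 28.6 and 22.2 in those labelled EED-/- (log2 fold change 4.30, limma adjusted p = 1.23e-06). It rose in mESC too (3.22, adjusted p = 0.000146). Zfp42 rose in AntNPC (2.73, adjusted p = 0.000157). Of 9 genes for establishment and erasure, 2 rose in AntNPC (22.2%, against 18.3% of all genes) and 1 in mESC (11.1%, against 20%). Dnmt3l, the cofactor of de novo methylation, had 1.30 to 1.43 FPKM in WT AntNPC and 23.2 to 36.8 in those labelled EED-/- (3.61, adjusted p = 6.26e-06), and Tet3, a methylcytosine oxidase gene, rose in both (1.03 and 1.92). Zfp42 is itself among the 7 pluripotency markers counted above. Dppa3 and Dnmt3l are also expressed in pluripotent cells, and the pluripotency markers rose in AntNPC too. A link between these rises was not tested.

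Genes of the insulin-like growth factor axis, in which IGF2 acts, changed in part. Of 13 tested, 4 rose (30.8%) and 1 fell (7.69%) in AntNPC, where 18.3% and 7.75% of all genes did, and 2 rose in mESC (15.4%, against 20% of all genes). Igf1, the related growth factor, rose in AntNPC (log2 fold change 0.99, limma adjusted p = 4.33e-05) from at most 0.0689 FPKM in WT to 0.766 to 1.32. Igfbp3, which binds IGFs outside the cell, rose in AntNPC (1.55, adjusted p = 7.4e-05). Igfbp6, a binding protein that prefers IGF2, rose in mESC (3.39, adjusted p = 0.000114), and Irs2, an adaptor of the insulin and IGF1 receptors, rose in both (1.01 and 1.35). Igf2bp2, which binds Igf2 mRNA, fell in AntNPC (-0.70, adjusted p = 0.00311). Igf1 and Igfbp6 were under 1 FPKM in every WT library and reached the test only through libraries labelled EED-/-. The filter thus favours their rises in these counts.

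In the authors' deposited table all 15 members called in AntNPC had mean read counts that differed in the same direction as here. The authors' deposited p-value, not stated to be adjusted, was also under 0.05 for most of the 21 members that did not pass here. The exceptions were Snrpn, Peg12, Mkrn3, Ube3a, Sgce and Phactr2. Not passing here is thus no sign that a member was equal between the groups. That table was made from the same libraries and is not an independent check. The FPKM of 23 of the 42 members could include reads of an annotated gene that overlaps them, and 19 overlap none.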

How the data were processed

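Sample names matched the 12 single-library columns, with 0 such columns left over. Per the submitters' processing notes the authors used TopHat2, Cufflinks, SAMtools, FastQC and the build GRCm38 (mm10), and the deposited values were taken as FPKM, a unit the header does not name. Versions and annotation are not stated. The authors also deposited, for AntNPC, each group's mean normalized read count (a signal) and a p-value; the notes name DESeq2 for 8 libraries, and do not say whether that p-value is adjusted. Polyadenylated RNA and a TruSeq v2 kit were used, per the labels.

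Read depth cannot be read from FPKM, so no counting interval is given. A gene was tested if 2 or more libraries had 1 FPKM or more. Among the members, Plagl1, Zim1 and Nap1l5 were under 1 FPKM in every WT library and reached the test only through libraries labelled EED-/-. The test was limma 3.58.1 (limma-trend, R 4.3.3) on log2(FPKM + 1), which understates changes of low genes. The model had 4 group means over all 12 libraries, so AntNPC libraries set part of the spread for the mESC groups of 2 (8 residual, 2.93 prior degrees of freedom). Tests were two-sided, with Benjamini-Hochberg adjustment over all genes within each of 5 comparisons. On simulated data it recovered 53% of genes changed by 1 and 91% of those changed by 2 on the log2 scale (100 genes each). The changed genes had a mean log2(FPKM + 1) above 2, and only the genotype comparison in AntNPC was simulated. Recovery of lower genes and in the other comparisons was not tested.

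Values in each library are given for members past the threshold in either genotype comparison or the interaction, and for both genes of each maternal to paternal pair. Up to 2 genes per direction with the smallest adjusted p are named from each further list, and other genes were added after their values were seen. The Zim1:Peg3 ratio was computed, and the other 3 planned ratios were not analysed here. Positions are from GENCODE M21, which matched 21149 genes. The members and lists were chosen with earlier results of these data known. AntNPC libraries of the same replicate number deviated together from their group means (correlations over genes 0.56, 0.32, 0.42 and 0.33), and mESC libraries of the same number did not (-0.67). Among AntNPC replicates 2 to 4, unmatched numbers correlated as much (0.33 to 0.40) while replicate 1 against the others gave -0.48 to -0.43, so that the pattern sets replicate 1 apart and does not single out matching numbers within 2 to 4. Nothing in the labels says what a number shares. Alternatives were the pseudocount, no filter, quantile normalization, centring per chromosome, a replicate block, each library left out, and each cell type alone.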

Additional observations from a re-analysis of the deposited data

Results flagged for a closer look

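Within the groups of 4, 17 of 72 checked (23.6%) held a library far from the other 3 by Dixon's test, where chance gives about 1 in 20. All 17 were replicate 1, in one or the other AntNPC group. In WT AntNPC replicate 1 was the high library for Igf2 (34.0 FPKM against 24.5 to 25.5), Slc22a18 (2.51 against 1.58 to 1.71), Phlda2 (8.64 against 2.50 to 3.36), Ndn (38.7 against 25.5 to 26.6) and Grb10 (108 against 72.4 to 74.1). It was the low library for Peg3 (11.0 against 33.9 to 37.1), Peg12 (5.74 against 15.6 to 17.6), Peg10 (19.9 against 32.1 to 32.4), Mest (280 against 480 to 513) and H13 (18.5 against 21.9 to 22.4).

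In AntNPC labelled EED-/- replicate 1 was the high library for Ndn (45.3 FPKM against 15.0 to 17.2), Mkrn3 (7.54 against 6.21 to 6.42) and Impact (37.1 against 30.3 to 30.7). It was the low library for Usp29 (1.02 against 6.92 to 7.57), Zim1 (2.71 against 5.93 to 6.17), Sgce (15.4 against 22.1 to 23.2) and Grb10 (88.9 against 122 to 124). Ndn deviated upwards in both groups, and Grb10 deviated upwards in WT and downwards in those labelled EED-/-.

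The genotype effect differed between AntNPC and mESC for 8 members by limma's interaction test. Of the 36 tested, 5.56% rose and 16.7% fell, where 3.98% of all tested genes rose and 11.3% fell. With the replicate number as a block only Igf2, Cdkn1c and Gnas passed. The difference (AntNPC minus mESC, log2) was -4.70 for Igf2, -3.01 for Cdkn1c, -2.59 for Ndn, -1.90 for Peg12, -1.54 for Gnas and -1.53 for Sgce. It was 2.71 for Phlda2 and 0.99 for Cd81.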

How the results depend on the processing

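Among the 36 members, Igf2, Phlda2, Peg3, Zim1, Nap1l5, Dlk1, Ddc, Plagl1, Nnat, Gab1 and Sfmbt2 passed in AntNPC under all alternatives run, and Cdkn1c, Gnas, H13 or Impact were lost under some. The 4 that fell in AntNPC became 8 with quantile normalization, 1 with the replicate block, 10 with the AntNPC libraries alone and 11 with those and the replicate block. Over all 13678 tested genes, 1060 fell in the main fit and 1945, 697, 2800 and 3051 in these fits, in that order. In mESC, quantile normalization gave 6 that rose and 2 that fell, and centring each chromosome 6 and 4. Over all tested genes 1216 rose and 1113 fell with quantile normalization, and 1143 rose and 901 fell with centring. When only the mESC libraries were fitted, limma called 0 that rose and 0 that fell, as it called 0 of all genes, with 12 members and 1703 of all genes at an unadjusted p under 0.05; that fit has fewer samples. Between cell types in libraries labelled EED-/-, the replicate block gave 8 that rose and 3 that fell, where 938 of all tested genes rose and 1383 fell. In the interaction, 1 rose with quantile normalization, 5 rose and 3 fell with centring per chromosome, 0 rose by limma (4 at an unadjusted p under 0.05) and 3 fell with the replicate block, and 4 rose without replicate 1 of both AntNPC groups. Of all tested genes, 733 rose in the first of these fits, and 908 rose and 706 fell with centring. With the block 275 rose and 776 fell, and 588 rose without replicate 1 of both AntNPC groups. With the mESC numbers crossed in the replicate block, added after seeing the data, 2 fell in AntNPC, 2 fell in mESC and 9 rose between cell types in those labelled EED-/-. Over all tested genes these counts were 979, 344 and 1682. The mESC median of maternal members went from 0.70 to 0.25 with quantile normalization, and that of paternal members from 0.68 to 1.53 with a pseudocount of 0.1. The cause of these changes was not tested.

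Leaving out each library in turn gave 10 to 13 members that rose and 2 to 9 that fell in AntNPC, 7 to 15 and 1 to 5 in mESC, 14 to 21 and 6 to 8 between cell types in WT, 6 to 17 and 3 to 9 in those labelled EED-/-, and 2 to 6 and 4 to 9 in the interaction. The number of all tested genes called also moved in such fits. Without single AntNPC libraries, 2048 to 2352 of all genes rose and 768 to 999 fell in AntNPC. The members' AntNPC medians ran from -0.02 to 0.09 (maternal) and 0.25 to 0.42 (paternal), and the mESC medians from 0.22 to 0.76 and 0.58 to 0.96. The difference in the Zim1:Peg3 ratio ran from -0.24 to 0.14 and was 0.99 (exact permutation p = 0.0286) with a pseudocount of 0.1; with the replicate block it stayed at -0.13. Among single genes, leaving out WT mESC replicate 1 or 2 gave 0.92 or -0.66 for Ascl2 in mESC and 2.67 or -2.38 for Snrpn between cell types in WT. The sign also turned for Nap1l5 (-0.32) and Gab1 (-0.13) in mESC with centring per chromosome. With 2 libraries a group, the mESC comparisons take part of their estimate of spread from the AntNPC libraries and move with single mESC libraries, and FPKM give no depth from which to judge low genes. H19:Igf2, Meg3:Dlk1 and Cdkn1c:Kcnq1ot1 were not run.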
